A study of Mus musculus with 8 samples.

Results

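Clps and Pnliprp2 encode secreted proteins of fat digestion, and both were measured by RNA sequencing in whole small intestine of mice with and without the chromatin remodeler Smarcad1 in the intestinal epithelium. They were taken by their gene symbols and are 2 of the 119 genes in the deposited table. The 4 wild-type (WT) and 4 knockout (KO) libraries came from C57BL/6 mice, and the study's methods do not tie an age to these libraries. In the KO, Smarcad1 was deleted by a Cre recombinase under the Villin promoter (Vil-Cre), which acts in the intestinal epithelium, so muscle, stroma and immune cells of the sampled tissue keep the gene. The intestine had been opened, washed free of its contents and frozen before total RNA was extracted, with no separation of cell types. The table holds only genes that the authors had selected on these same 8 libraries by a test of KO against WT. Every test below of a gene between KO and WT therefore describes genes already chosen for a difference, and is not independent evidence of one.

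Clps is colipase, a small cofactor that anchors pancreatic lipase to the surface of fat droplets when bile salts would otherwise keep the enzyme off. Pnliprp2 is pancreatic lipase-related protein 2, a relative of pancreatic lipase that also cleaves phospholipids and plant galactolipids and takes part in the digestion of milk fat in suckling mice. Acinar cells of the exocrine pancreas secrete both into the duodenum, where fatty acids and monoglycerides are released for uptake by enterocytes. The pancreas lies against the proximal small intestine, so its tissue can be present in an intestinal sample. Paneth cells, which sit at the base of small intestinal crypts, are also secretory cells, filled with granules of antimicrobial defensins.

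Clps lies on chromosome 17 of mouse build GRCm38 from 28558210 to 28560766 on the minus strand, and its exons cover 550 of the 2557 bp. Pnliprp2 lies on chromosome 19 from 58759723 to 58777533 on the plus strand, with 1567 bp of exons in a span of 17811 bp. The nearest other gene of the table is 3.38 Mb from Clps and 2.44 Mb from Pnliprp2. The first 60 coding bases of each transcript are shown to identify what was counted, with the start codon in capitals. They lie in the first exon of each, at chr17:28560598-28560657 on the minus strand for Clps and at chr19:58759789-58759848 on the plus strand for Pnliprp2.
Clps: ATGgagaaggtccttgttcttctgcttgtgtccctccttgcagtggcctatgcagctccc
Pnliprp2: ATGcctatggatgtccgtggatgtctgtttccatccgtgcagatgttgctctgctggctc

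Pnliprp2 sits beside its relatives on chromosome 19. Pancreatic lipase (Pnlip) is 77.9 kb away and Pnliprp1, a relative with little known lipase activity, is 15.6 kb away. Clpsl2, a colipase-like gene, is 5.59 kb from Clps. Reads of such relatives could be exchanged if the transcripts were near copies, so the transcripts were compared. The Pnliprp2 transcript was 68.9% identical to Pnlip and 65.5% identical to Pnliprp1, with longest identical runs of 20 and 19 bp. Clps and Clpsl2 were 58.0% identical, with a longest run of 10 bp. None of the 562 windows of 50 bases in the Clps transcript, nor of the 1523 in the Pnliprp2 transcript, occurred in a transcript of another gene among 141767 searched. The 60 bases in which the 3 lipase transcripts are most alike are shown for this reason. They are coding sequence of exons 3 and 4, positions 428 to 487 of the Pnliprp2 transcript, between 58761680 and 58762297 on chromosome 19. Capitals mark bases that differ from Pnliprp2, of which Pnlip has 10 and Pnliprp1 has 7.
Pnliprp2: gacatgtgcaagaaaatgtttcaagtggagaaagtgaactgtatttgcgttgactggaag
Pnlip: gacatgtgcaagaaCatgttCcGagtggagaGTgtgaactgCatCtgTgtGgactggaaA
Pnliprp1: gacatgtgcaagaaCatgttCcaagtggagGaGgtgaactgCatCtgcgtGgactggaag

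Levels are in RPKM, reads per kilobase of gene scaled to the number of mapped reads in the library. The values gave whole reads only when the kilobases were those of the genomic span, introns included, and the libraries held between 56981718 and 78026422 mapped reads. The study's methods, by contrast, describe counts over exons, and whether reads in introns entered was not tested. Either way, the length has no bearing on a comparison of the same gene between libraries. Smarcad1, the targeted gene, averaged 0.334 RPKM in WT (SD 0.0288, n = 4) against 0.235 RPKM in KO (SD 0.0308, n = 4), and the groups were apart. It fell by 0.37 ± 0.11 on the scale of log2(RPKM + 0.1) (SE, limma, adjusted p = 0.0106). At this low level the size of the change depended on the pseudocount, at -0.49 with 0.01 and -0.11 with 1 in place of 0.1, and the call was kept.

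Clps was lower in KO. The WT libraries 1 to 4 had 21.1, 29.3, 24.8 and 28.7 RPKM, and the KO libraries 1 to 4 had 16.0, 22.4, 19.6 and 17.5 RPKM. KO libraries 1, 3 and 4 lay below every WT library, while KO library 2 lay above WT library 1, so the groups overlapped. The mean was 25.9 ± 3.81 RPKM over WT and 18.9 ± 2.81 RPKM over KO (SD, 4 libraries each), and fell by 27.3%. On the scale of log2(RPKM + 0.1) Clps fell by 0.46 ± 0.15 (SE), with a 95% interval from -0.79 to -0.13 (limma, Benjamini-Hochberg adjusted p over the 119 genes = 0.0166). Between 3017 and 5155 reads lay behind each value, so that counting error was at most 1.82% and small beside the coefficients of variation of 14.7% in WT and 14.9% in KO. Without KO library 1, the lowest of all, the adjusted p was 0.0502, and by an exact permutation test per gene it was 0.0694.

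Pnliprp2 was also lower in KO, with no overlap between the groups. The WT libraries 1 to 4 had 5.07, 7.86, 5.39 and 7.04 RPKM, and the KO libraries 1 to 4 had 4.13, 4.55, 4.53 and 3.08 RPKM. The WT libraries 2 and 4 were the highest for both genes, and the lowest library was KO 4 for Pnliprp2 but KO 1 for Clps. Its mean was 6.34 ± 1.33 RPKM over WT and 4.08 ± 0.688 RPKM over KO (SD, 4 libraries each), and fell by 35.7%. The log2 value fell by 0.62 ± 0.18 (SE), with a 95% interval from -1.02 to -0.22 (limma, adjusted p = 0.0106). Between 4287 and 8820 reads lay behind each value, with a counting error of at most 1.53% against coefficients of variation of 21.0% in WT and 16.9% in KO. In bulk tissue, fewer cells of a type and less RNA per cell cannot be told apart for either gene.

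**Figure D1:**
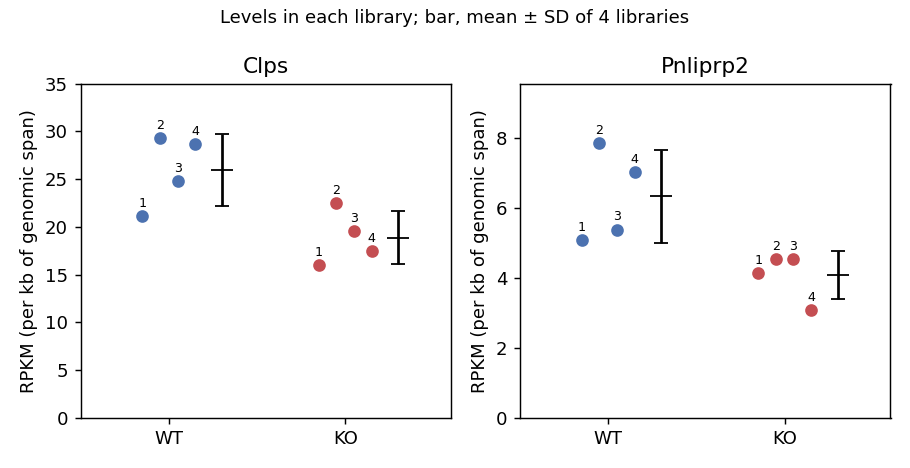
Levels of Clps and Pnliprp2 in RPKM (y axes, per kilobase of genomic span) in each of the 4 WT and 4 KO libraries, numbered as in the labels, with the mean and SD of each group as bars. KO library 2 lies above WT library 1 for Clps, at 22.4 against 21.1 RPKM, while for Pnliprp2 the highest KO library, at 4.55 RPKM, lies below the lowest WT library, at 5.07 RPKM.

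These calls stand in a table in which calls are common. Limma called 79.0% of the 119 genes in either direction and 30.3% lower in KO, and both Clps and Pnliprp2 were among the latter. The groups did not overlap for 71.4% of the genes, and for 22.7% with KO the lower group, which held for Pnliprp2 and not for Clps. When each library was scaled by its median ratio over the listed genes, KO moved relative to WT by a median over genes of -0.14 in log2(RPKM + 0.1). The pseudocount damps this shift in genes of low level. The calls were then 57 lower of 115, against 36 lower of 94 with the RPKM as deposited. Without this scaling, but with only the 77 genes of a mean of at least 0.5 RPKM kept, 28 of 56 calls were lower. Under median-ratio scaling Clps fell by 0.61 (limma, adjusted p = 0.00495) and Pnliprp2 by 0.77 (adjusted p = 0.00352). Such scaling takes most genes to be unchanged, but these were all selected for a difference, with 48.7% called higher in KO and 30.3% lower. The larger falls under it are thus no added evidence.

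The order of the genes by level was the same for both lengths. Per kilobase of span, Clps was above Pnliprp2 in all 8 libraries. If all reads fell in exons, the levels per kilobase of exon would be 120.6 ± 17.7 in WT and 87.7 ± 13.1 in KO for Clps, and 72.1 ± 15.1 in WT and 46.3 ± 7.82 in KO for Pnliprp2 (RPKM per exonic length, SD, n = 4 each). Clps had the higher mean on this scale too.

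The ratio of Clps to Pnliprp2, which cancels any difference between libraries that both genes share, was compared next. On the span scale the WT libraries 1 to 4 had ratios of 4.16, 3.72, 4.60 and 4.07, and the KO libraries 1 to 4 had ratios of 3.87, 4.93, 4.32 and 5.66. The groups overlapped, with KO 4 the highest and WT 2 the lowest. The log2 ratio was 2.04 ± 0.12 in WT and 2.22 ± 0.24 in KO (SD, n = 4 each), a difference of 0.17 ± 0.13 (SE; exact two-sided permutation p = 0.286, where 0.0286 is the smallest p that 4 against 4 libraries allow). The 97.1% permutation interval ran from -0.25 to 0.60, so a difference in the extent of the fall was not shown, and one of either sign was compatible with these libraries.

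The other products of acinar cells could not be followed. Of 32 acinar markers, among them trypsinogens, elastases, amylase, carboxypeptidases and Pnlip, the table held 2, namely Clps and Pnliprp2 themselves, and the other markers were not analysed here. The summed level of these 2 genes ranged from 26.2 to 37.1 RPKM in WT and from 20.1 to 27.0 RPKM in KO. Of 9 pancreatic islet markers the table held 1, Kirrel2, which was listed at 0 in 3 WT libraries and rose to between 0.0504 and 0.103 RPKM in KO (limma, adjusted p = 3.78e-04). Limma called 48.7% of the listed genes higher in KO. At this low level the log2 change of Kirrel2 depended on the pseudocount, at 3.01 with 0.01, 0.82 with 0.1 and 0.11 with 1. The paper also reports Kirrel2 as raised by the KO in small intestinal organoids and colon epithelium. The part of attached pancreatic tissue in the levels of Clps and Pnliprp2 was not tested.

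Of a list of 30 genes drawn up for lipid digestion and uptake, the table held 6. The 4 besides Clps and Pnliprp2 are genes of lipid handling in cells and not of digestion. All 4 rose in KO, where limma called 48.7% of the listed genes higher. Abca1, which exports cholesterol from cells, rose from 0.209 ± 0.0118 to 0.313 ± 0.0406 RPKM, a log2 change of 0.41 ± 0.10 (SE, limma, adjusted p = 0.00592). Acaa1b, a thiolase of peroxisomal fatty acid oxidation, rose from 0.660 to 1.86 RPKM, a log2 change of 1.43 ± 0.32 (adjusted p = 0.00400). The acyl-CoA thioesterases Acot5 and Acot6, which release free fatty acids from coenzyme A, rose from 0.0324 to 0.153 RPKM and from 0.185 to 0.527 RPKM, log2 changes of 0.96 and 1.13 (limma, adjusted p = 0.00255 and 2.01e-04), with Acot5 at 0 in at least 1 WT library. The sizes of these changes in genes of low level depend on the pseudocount. With 0.01 and 1 in place of 0.1, the log2 change was 2.34 and 0.16 for Acot5, 1.46 and 0.36 for Acot6, 1.57 and 0.79 for Acaa1b, and 0.55 and 0.12 for Abca1, and all kept their call. The median change of the list at a pseudocount of 0.1 was 0.68, beside -0.07 over all 119 genes.

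The Paneth cell products in the table moved in the same direction as Clps and Pnliprp2. Of a list of 18 Paneth cell products, the table held 12, comprising 10 defensins (Defa and Defa-rs), the angiogenin Ang4 and the lectin Itln1. The others of the list were not analysed here. All 12 fell in KO by limma, against 36 of 119 listed genes, with log2 changes from -0.69 to -0.37 and a median of -0.54. Listed genes that are not Paneth cell products fell within this range too, so a fall of this size is not particular to them. The groups did not overlap for 8 of the 12, beside the 22.7% of all listed genes that were apart with KO lower and the 71.4% apart in either direction. None was at 0 in any library, and their summed level ranged from 3701 to 5133 RPKM in WT and from 2967 to 3866 RPKM in KO. Defa24, the most abundant, fell from 2701 ± 392 to 2073 ± 357 RPKM (SD, 4 libraries each), and Ang4 fell from 40.9 ± 5.42 to 30.3 ± 3.36 RPKM. The paper, by contrast, lists Itln1 as raised by the KO in sorted small intestinal cells and in organoids. It also names Ang4, Defa22 and Defa26 among defence genes that changed in KO, mostly upward, across its datasets. The calls of Defa24 and Itln1 were lost without WT 2, WT 4, KO 1, KO 2 or KO 4, and that of Defa24 also without WT 3, with log2 changes from -0.41 to -0.30 in these fits. Defensin genes are near copies of each other, so the split of reads among them is uncertain.

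**Figure D2:**
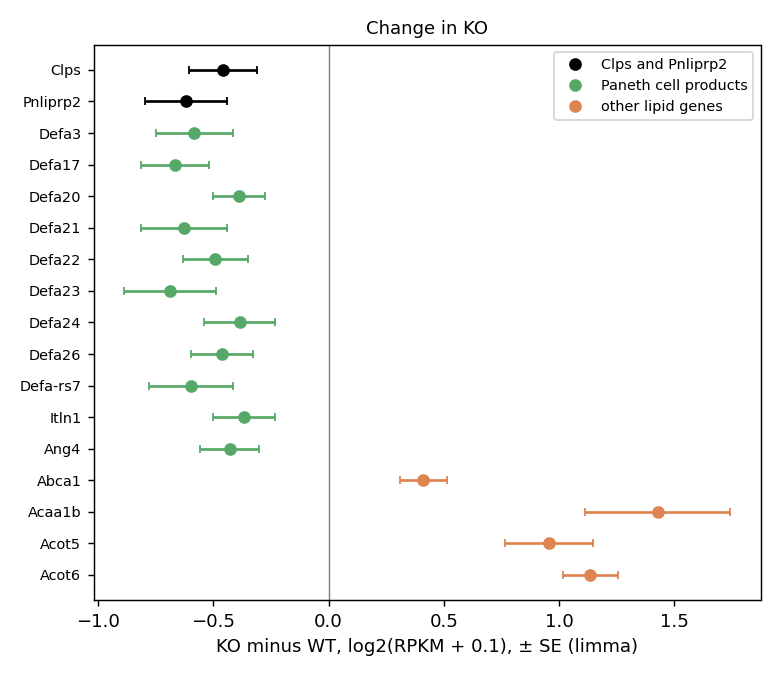
Change of each gene in KO relative to WT on the log2(RPKM + 0.1) scale (x axis), with the limma SE as bars, for Clps and Pnliprp2, the Paneth cell products reported singly and the 4 other lipid genes of the table. The changes of Clps (-0.46) and Pnliprp2 (-0.62) lie within the range of the Paneth cell products, from -0.69 to -0.37, and the other lipid genes lie to the right of 0. Further listed genes that are not drawn also fell within this range.

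The levels of both genes were next set against the mean of these 12 Paneth cell products, and the groups overlapped for each. For Clps the log2 difference from the Paneth mean was -1.90 ± 0.06 in WT and -1.83 ± 0.13 in KO (SD, n = 4 each). It was thus 0.07 ± 0.07 (SE) higher in KO, with a 97.1% permutation interval from -0.15 to 0.26 (exact two-sided permutation p = 0.371, adjusted over both genes 0.4). For Pnliprp2 it was -3.93 ± 0.11 in WT and -4.01 ± 0.14 in KO, a difference of -0.09 ± 0.09 with an interval from -0.39 to 0.15 (exact two-sided permutation p = 0.4, adjusted 0.4). Neither p shows that the changes were equal, and the intervals limit how far they could differ in these libraries. Clps, Pnliprp2 and the 12 Paneth cell products had all passed the authors' test of KO against WT on these libraries, and all fell. A similar fall was thus favoured by the selection, and this comparison is not independent evidence of one.

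**Figure D3:**
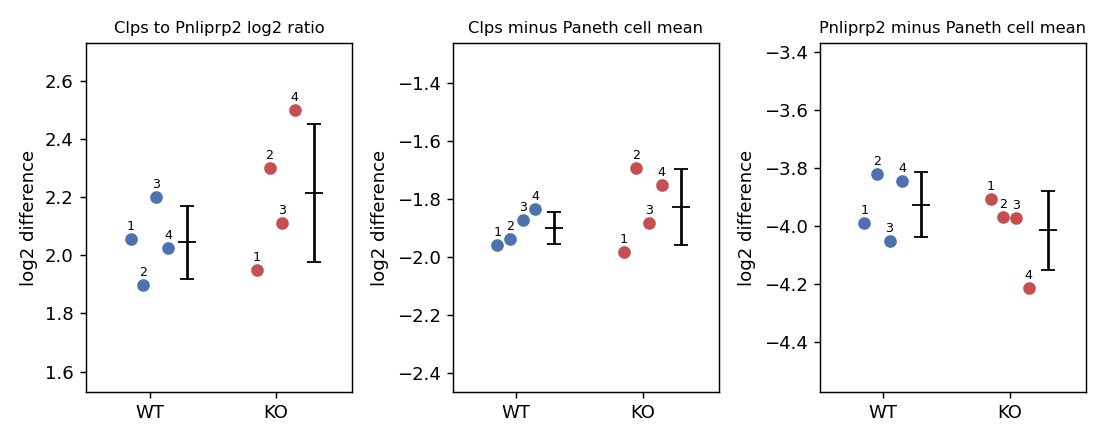
Log2 ratio of Clps to Pnliprp2 (left) and log2 level of each gene minus the mean of 12 Paneth cell products (middle and right) in each numbered library of WT and KO, with the mean and SD of 4 libraries as bars. The groups overlap in all 3 panels, and each y axis covers the same number of log2 units.

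The spread between libraries of the same group was of middling size for the table. The pooled SD within groups was 0.21 on the log2 scale for Clps, the 48th widest of 77 genes with a mean of at least 0.5 RPKM, and 0.28 for Pnliprp2, the 27th widest. The median of these genes was 0.25, and the 12 Paneth cell products lay between 0.13 and 0.32. Neither gene thus stood apart by its spread among these listed genes. All of them had passed the authors' test on these libraries, which favours genes with little spread for their change. Genes of wide spread could thus have been left out, so the ranks say little about spread in general.

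The libraries in which the genes were high or low for their group were largely shared. As deviations from the group mean on the log2 scale, WT library 1 was low for Clps and Pnliprp2 alike (-0.29 for each) and for the Paneth mean (-0.23). WT library 2 was high for all of them, at 0.19 for Clps, 0.33 for Pnliprp2 and 0.22 for the Paneth mean. The genes parted in the KO, where library 1 was low for Clps (-0.23) but not for Pnliprp2 (0.04), and library 4 was lower for Pnliprp2 (-0.37) than for Clps (-0.10).

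Across the 8 libraries, the deviations of Clps and Pnliprp2 had a Pearson r of 0.746 (exact permutation within groups, p = 0.0677) and a Spearman rho of 0.857 (p = 0.0208). Without WT 1 and KO 2, the libraries farthest from the median of Clps, r was 0.620 (exact p = 0.278). Without KO 1 it was 0.897 (exact p = 0.0347) and without KO 4 it was 0.805 (exact p = 0.0278), so 1 library decided whether this relation passed the threshold. Relations with the Paneth mean were computed after the values had been seen. Clps had r = 0.887 (exact p = 0.0156) and rho = 0.881 (exact p = 0.0139) with the Paneth mean, and r = 0.824 (exact p = 0.104) without WT 1 and WT 2, which are farthest from the median of the Paneth mean. Without WT 1 alone r was 0.817 (exact p = 0.0625), and without any other single library it lay between 0.879 and 0.928. Pnliprp2 had r = 0.951 (exact p = 0.00174) and rho = 0.952 (exact p = 0.00347), and r = 0.926 (exact p = 0.0208) without the same libraries. Adjusted by Benjamini-Hochberg over these 3 relations, the exact p of r and of rho was 0.0677 and 0.0208 for Clps and Pnliprp2, 0.0234 and 0.0208 for Clps and the Paneth mean, and 0.00521 and 0.0104 for Pnliprp2 and the Paneth mean.

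**Figure D4:**
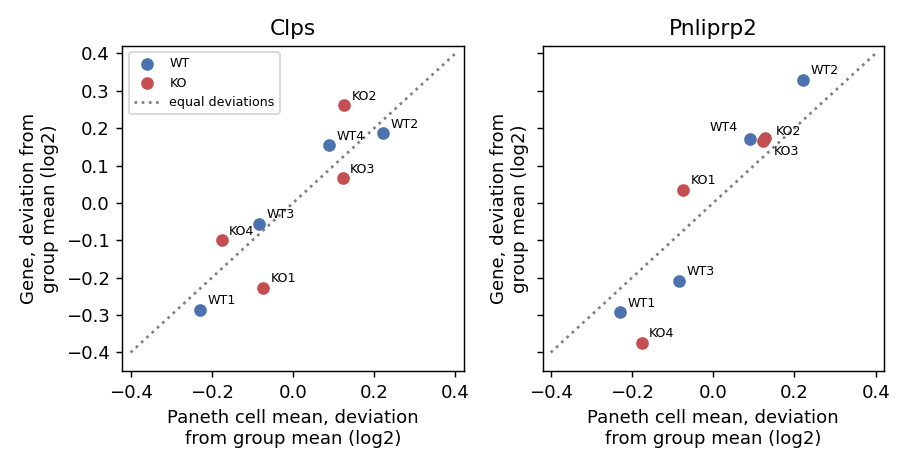
Deviation of Clps (left) and Pnliprp2 (right) from its group mean against the deviation of the mean of 12 Paneth cell products, both in log2 units, with 1 point per WT or KO library. The deviations rose together, with r = 0.887 for Clps and 0.951 for Pnliprp2, but several points lie off the dotted line of equal deviations. Among them, KO 1 lies below the line for Clps (-0.23 against -0.07) and KO 4 for Pnliprp2 (-0.37 against -0.18).

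Among the 76 other genes with a mean of at least 0.5 RPKM, the genes most like Clps and Pnliprp2 in these deviations were mostly defensins. For Clps the 5 highest r values were those of Defa23 (0.964), Defa22 (0.903), Defa3 (0.897), Defa26 (0.862) and Defa24 (0.830), and Pnliprp2 came 10th. For Pnliprp2 they were those of Defa21 (0.936), Defa-rs7 (0.934), Defa17 (0.901), Gm14851 (0.883) and Gm15292 (0.865), and Clps came 12th. Over the 12 Paneth cell products the median r was 0.795 with Clps and 0.768 with Pnliprp2, beside 0.0977 and 0.237 over all 76 genes. Of the 10 genes most like each, 7 were Paneth cell products for Clps and 7 for Pnliprp2. Defa20 was an exception for both, with r of -0.18 for Clps and -0.31 for Pnliprp2. Every r is over the same 8 libraries, genes are not independent replicates, and the values are a description with no test.

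**Figure D5:**
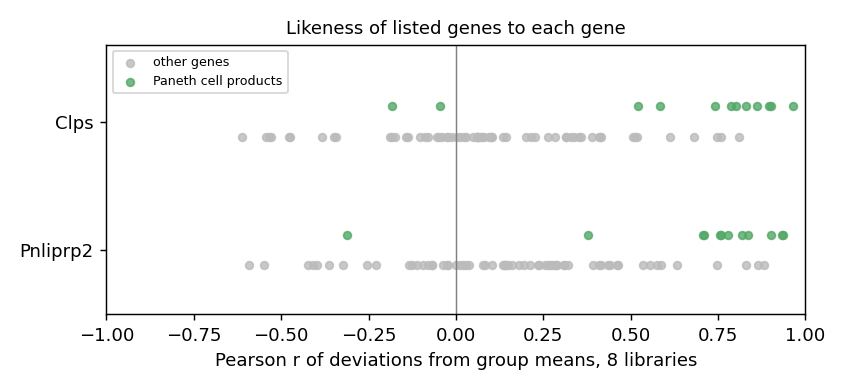
Pearson r (x axis) of the deviations of each of 76 genes with those of Clps (top) and Pnliprp2 (bottom) over 8 libraries, with 1 point per gene and the 12 Paneth cell products raised above the other genes. Most Paneth cell products lie at the right, with medians of 0.795 and 0.768, and Defa20 lies left of 0 in both rows.

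The promoter of Pnliprp2 is shown because both genes fell together, and it was searched for motifs of factors that act in acinar and intestinal cells. Its 300 bases, from 250 before to 50 after the start site, are from RefSeq on build GRCm38.p6, chr19:58759473-58759772 on the plus strand, with matches to the searched motifs in capitals. The Clps promoter was not analysed here.
Pnliprp2: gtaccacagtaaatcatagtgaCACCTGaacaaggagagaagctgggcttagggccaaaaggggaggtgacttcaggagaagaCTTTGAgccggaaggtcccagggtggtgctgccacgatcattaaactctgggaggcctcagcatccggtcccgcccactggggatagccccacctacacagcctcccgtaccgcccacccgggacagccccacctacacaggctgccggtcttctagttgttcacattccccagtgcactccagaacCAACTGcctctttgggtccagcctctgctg

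Motifs were searched on both strands, and the matches did not overlap. The E-box CANNTG, which basic helix-loop-helix factors such as the acinar factor Ptf1a bind, matched 228 bases before and 20 bases after the start site. At least 1 E-box was present in 72.3% of 32851 promoters of this length. The TCF motif CTTTGA, read by Wnt signalling in crypts, matched 167 bases before the start site and was present in 16.0% of promoters. The letters TGGGAA of the RBPJ element of the Ptf1a complex site, TTTATNG of the intestinal factor Cdx2, and TATAAA were not in this window, and were present in 25.6%, 10.9% and 13.6% of promoters. A match describes letters in this window and not a bound site.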

How the data were processed

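RNA sequencing of whole small intestine was compared between 4 WT and 4 Smarcad1-KO libraries, grouped by the genotype in the labels. Per the labels and the study's methods, the authors trimmed reads (Trim Galore 0.4.1), mapped them to GRCm38 (HISAT2 2.0.1), kept uniquely mapped reads, counted them over the exons of transcripts and tested KO against WT with DESeq2. The deposited table holds RPKM values per library for the 119 genes the authors selected, with the authors' group means and FDR values (adjusted p-values), which were not used here. The strandedness of the libraries is not given in the sources used here. Multiplied by genomic span, introns included, and a fitted depth, the deposited RPKM nevertheless gave whole reads for 100% of 939 values above 0, to within 0.05 reads. Whether intronic reads were counted was not tested.

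For each gene, log2(RPKM + 0.1) was fitted with limma 3.58.1 in R 4.3.3 (group as the only term, Benjamini-Hochberg adjustment over 119 genes, threshold 0.05). This scale understates the change of low genes. An exact two-sided permutation test was used for single values. The scripts were tested on simulated data. Sequences came from GENCODE mouse release 21 and RefSeq. Clps and Pnliprp2 and the 5 gene lists were chosen with earlier results of these data known. Besides them and Smarcad1, genes were named if in a list, or among the 5 most like either gene in their deviations. The values of 1 Paneth list gene are not reported singly here. The labels do not say that each library is a separate mouse, so p-values measure the spread between these libraries. Alternatives were other pseudocounts, a minimum mean RPKM, an intensity trend, permutation per gene, voom, median-ratio scaling, a replicate block, medians in place of group means, no centring, and leaving out each library.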

Additional observations from a re-analysis of the deposited data

Results flagged for a closer look

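Kirrel2, the only islet marker in the table, was at 0.00311 RPKM in WT library 3 and listed at 0 in the other WT libraries, so the gap of that library to the others was 1 as a share of the range of its group. Gaps were judged by the critical value of a Dixon outlier test at 1 in 20. It was passed in 1 of 56 groups of 4 libraries examined, and chance alone gives about 2.8. With every other WT value at 0, any value above 0 gives a gap of 1, so the flag reflects the floor.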

How the results depend on the processing

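Pnliprp2 kept its direction and its call under every alternative and without any single library (log2 change from -0.72 to -0.49 without 1 library). Clps kept its direction, with -0.46 and an adjusted p of 0.0694 by an exact permutation test per gene, and from -0.55 to -0.38 without 1 library (limma, adjusted p from 0.00851 to 0.0502). Smarcad1 ranged from -0.43 to -0.33 without 1 library, and from -0.50 to -0.11 under the other alternatives. The genes past the threshold numbered 94 of 119 as reported. Among the 77 with a mean RPKM of at least 0.5 they were 56, all shared with the reported calls. They numbered 115 with median-ratio scaling, 94 with voom on the recovered reads (89 shared with the reported calls), and 86 to 99 without 1 library. The correlation of Clps with Pnliprp2 was 0.644 to 0.897 without 1 library. With no centring on group means it was 0.901, but this value takes in the fall in KO that both genes share. The difference in their log2 ratio ranged from 0.08 to 0.26 without 1 library, that of Clps from the Paneth mean from 0.03 to 0.12 and that of Pnliprp2 from -0.13 to -0.02, and the pooled SD from 0.18 to 0.23 for Clps and from 0.24 to 0.30 for Pnliprp2. Same-numbered libraries did not deviate together throughout (r of 0.27, 0.21, -0.11 and -0.03 over genes), so the numbers were not taken to pair them. For Clps, WT 1 and KO 1 were both low (-0.29 and -0.23) and WT 2 and KO 2 both high (0.19 and 0.26). WT 3 and KO 3 (-0.06 and 0.07) and WT 4 and KO 4 (0.16 and -0.10) went opposite ways. A factor shared by number was not tested, and the correlations take the 8 libraries as independent. With the replicate block, limma's adjusted p was 0.0127 for Clps and 0.0230 for Pnliprp2, and 90 genes were called. The SE was then 0.11 for Clps, against 0.15 without the block, and 0.18 for Pnliprp2 with and without it. Of 316 recalculations for 20 other named genes, 298 kept their direction and call, 18 lost the call (in Defa21, Defa23, Defa24 and Itln1), and 0 reversed. Counting error was small at this depth, so the 4 libraries per group limit the precision.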

Other observations

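Treh, the brush border enzyme that splits the sugar trehalose, was the single gene of a list of 10 small intestine and enterocyte markers in the table. It rose from 5.57 ± 1.25 RPKM in WT to 11.0 ± 2.27 RPKM in KO (SD, n = 4 each), a log2 change of 0.97 ± 0.20 (SE, limma, adjusted p = 0.00269), with no overlap between the groups. This is the opposite direction to Clps and Pnliprp2. The deviations of Treh within groups had r = 0.329 with Clps and 0.536 with Pnliprp2, below those of most Paneth cell products.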
